A study of Oryza sativa with 32 samples.

Results

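The enzymes of glycolysis and fermentation, which make and use pyruvate, were followed in rice, Oryza sativa cultivar Nipponbare, in root and in shoot on a 1-colour Affymetrix rice array. Members were the probe sets of genes whose symbol or synonym, without a leading Os, begins with the letters of a glycolytic or fermentative enzyme followed by a digit, a letter and digit, a hyphen or nothing. The rule found 26 of the 17905 genes that had a probe set matched to 1 gene. They had 37 of 57381 probe sets, of which 22436 matched 1 gene and 95 matched several. Of these, 27 probe sets of 18 genes carry the name of an enzyme of the pathway. The other 10 probe sets, of 8 genes, met the rule by their letters alone and are described at the end. No member was found for phosphofructokinase, phosphoglycerate kinase, lactate dehydrogenase or phosphoenolpyruvate carboxylase, and ADH1, the other alcohol dehydrogenase in the gene table, had no probe set matched to it alone, so none of these was analysed here.

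Arrays came from AGR1/7, AGR1/8, AGR3/8 (the 3 transgenic lines) and wild type, with 4 arrays of root and 4 of shoot for each genotype (32 arrays in 8 groups). The labels call the lines independent and the arrays biological replicates. Each line carries OsANT1:HvAlaAT, in which a promoter that the labels call root-specific drives alanine aminotransferase of barley. All plants, wild type included, grew in hydroponics with 5 mM ammonium as nitrogen source at 28 °C, and RNA was taken at mid-day of maximum tillering. No group with an empty transgene was among those used here, so insertion of a transgene as such and its product cannot be told apart.

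Glycolysis splits sugar phosphates into triose phosphates and oxidises these to phosphoenolpyruvate, from which pyruvate kinase makes pyruvate. Pyruvate is then burned in mitochondria, turned through acetaldehyde into ethanol by pyruvate decarboxylase and alcohol dehydrogenase, or aminated. Alanine aminotransferase, the enzyme that the lines carry, moves an amino group between glutamate and pyruvate and so joins carbon and nitrogen metabolism. Rice roots are known for their capacity for fermentation, which keeps glycolysis running when oxygen is short.

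Levels are intensities on the linear scale of the deposited table, and a level is set only against the same probe set on other arrays. Differences are on the log2(intensity + 16) scale with their standard error, from limma, and a probe set is called where the p-value adjusted by the Benjamini-Hochberg method over all 38129 probe sets tested is under 0.05. The array medians lay between 14.1 and 17.8. Replicate 1 of wild type root stood apart, with a mean correlation with the other arrays of its group of 0.954, and array weights gave it 0.194, the lowest of the root arrays. The summed intensity of 8 probe sets of shoot markers was 294 to 865 on root arrays and 29007 to 64260 on shoot arrays. The 15 root marker probe sets summed to 20172 to 27801 on root arrays and 2715 to 6524 on shoot arrays, with no overlap between the tissues. These sums do not speak for each probe set. Of 14 root marker probe sets tested in wild type, 11 were called higher and 3 lower in root, beside 31.9% and 27.3% of all probe sets. In root 1 of 14 root marker probe sets tested, Lsi1, a silicon transporter, was higher for the mean of the lines (0.24 ± 0.06, adjusted p = 0.0424), and 0 were without wild type replicate 1; 0 of 6 shoot markers were called. The symbols are those of the array's annotation and the rice gene table, and several probe sets of 1 gene are given separately as probe set 1, 2 and 3.

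In wild type, most probe sets of glycolytic and fermentative enzymes were higher in root than in shoot. Of 36 members tested, 29 were called, 21 higher and 8 lower in root, which is 80.6% of those tested. Over all probe sets tested, 59.2% were called, 31.9% higher and 27.3% lower in root. Among the 27 enzyme probe sets, 16 were higher and 4 lower in root, and their median difference was 0.55, against 0.02 over all probe sets tested. In bulk tissue, more cells of a type and more RNA per cell cannot be told apart.

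**Figure D1:**
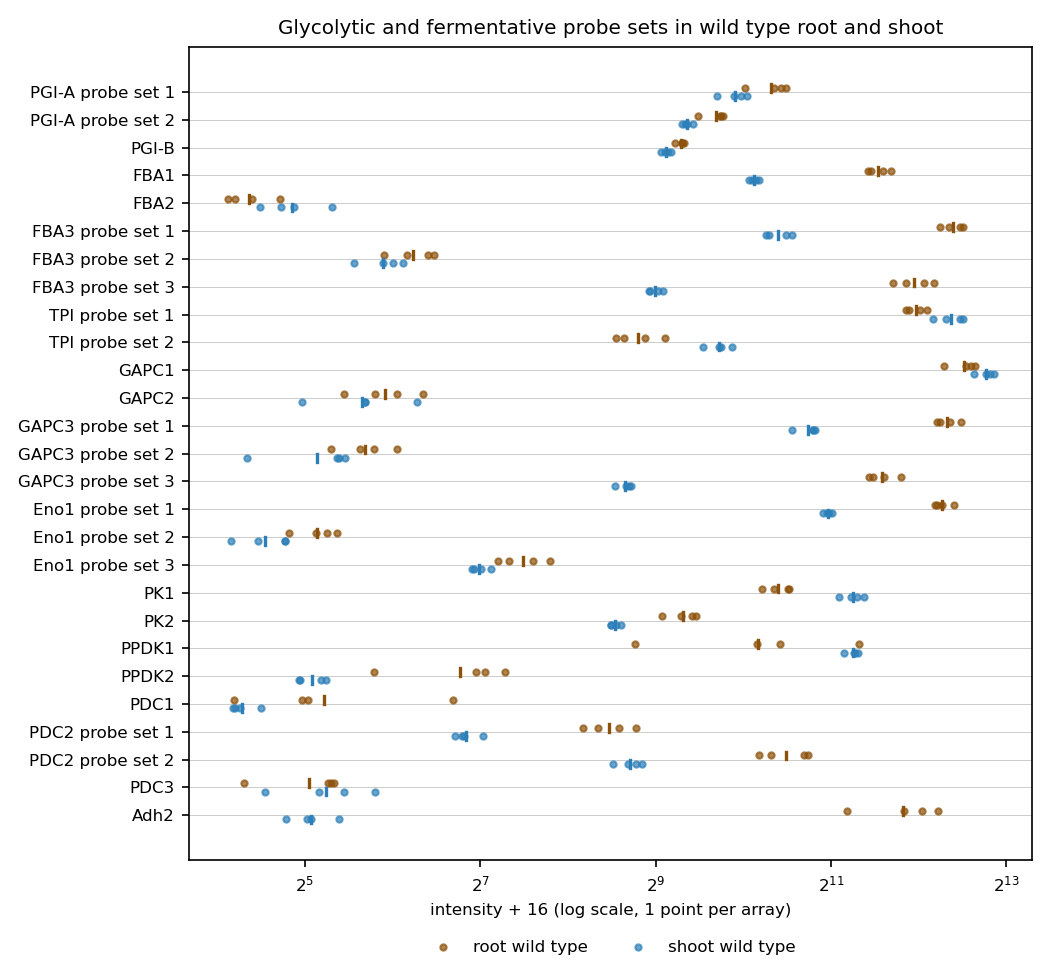
Intensity + 16 (horizontal log axis) of the 27 enzyme probe sets on the 4 root arrays and 4 shoot arrays of wild type, 1 point per array with the mean of the logs as a bar. Adh2 lies far to the right in root and near the added constant in shoot, while TPI, PK1 and PPDK1 have their root means to the left of their shoot means; positions of different probe sets cannot be compared.

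Fermentation had the member with the largest difference between the tissues. Adh2 (LOC4350054), an alcohol dehydrogenase that reduces acetaldehyde to ethanol, had intensities of 2306, 4766, 4180.2 and 3621 on wild type root arrays, against 16.6, 25.8, 17.7 and 11.6 on wild type shoot arrays. Root and shoot did not overlap, and the shoot values lay near the added constant. The difference was 6.75 ± 0.19 (adjusted p = 1.58e-23). Pyruvate decarboxylase, which turns pyruvate into acetaldehyde, gave a difference of 1.63 ± 0.14 and 1.77 ± 0.14 for the 2 probe sets of PDC2 (adjusted p = 1.29e-11 and 1.45e-12). PDC2 probe set 2 had 1259, 1689, 1645 and 1143 on wild type root arrays and 351, 396, 421 and 446 on wild type shoot arrays, with no overlap. PDC1 was dim and uneven, at 2.3, 15.2, 87.6 and 16.8 in wild type root, against 2.2, 2.4, 3.2 and 6.6 in wild type shoot, with a difference of 0.93 ± 0.31 (adjusted p = 0.0107). PDC3 was dim in both tissues and its difference of -0.19 ± 0.27 was not called (adjusted p = 0.566).

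Aldolase, which splits fructose bisphosphate into triose phosphates, was also higher in root. FBA3 probe set 1 (LOC4325027) averaged 5362 ± 432 in wild type root and 1338 ± 135 in wild type shoot (SD, n = 4 each), a difference of 1.99 ± 0.14 (adjusted p = 1.34e-13). FBA3 probe set 3 gave 2.95 ± 0.13 (adjusted p = 1.16e-18), and FBA1, a further aldolase, gave 1.41 ± 0.10 (adjusted p = 1.13e-13). The probe sets of FBA3 did not give 1 answer: probe set 2 was dim, and its difference of 0.34 ± 0.15 was not called (adjusted p = 0.0524). FBA2 lay at or below the added constant in most arrays and was not called either (-0.49 ± 0.22, adjusted p = 0.0535).

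The steps from triose phosphate to phosphoenolpyruvate differed by gene. GAPC3 (LOC4329892), a cytosolic glyceraldehyde phosphate dehydrogenase that carries out the oxidation step, averaged 5126 ± 445 in wild type root and 1701 ± 139 in wild type shoot on probe set 1 (SD, n = 4 each). Its difference was 1.58 ± 0.09 on probe set 1 and 2.92 ± 0.11 on probe set 3 (adjusted p = 4.99e-16 and 2.51e-20), while the dim probe set 2 was not called. GAPC1, of the same enzyme class, ran the other way at -0.25 ± 0.13 and was not called (adjusted p = 0.0955). Enolase, which forms phosphoenolpyruvate, averaged 4912 ± 339.5 in wild type root and 1979 ± 55.1 in wild type shoot on Eno1 probe set 1 (SD, n = 4 each), a difference of 1.30 ± 0.10 (adjusted p = 3.12e-13). Glucose phosphate isomerase, which turns glucose phosphate into fructose phosphate, differed less: PGI-A probe set 1 gave 0.42 ± 0.11 and probe set 2 gave 0.33 ± 0.10 (adjusted p = 0.00218 and 0.00463), and PGI-B gave 0.17 ± 0.10 and was not called (adjusted p = 0.132).

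The 2 genes named as pyruvate kinase ran in opposite directions between the tissues. PK1 (LOC4349774) had 1172, 1456, 1438 and 1293 on wild type root arrays and 2164, 2498, 2642 and 2377 on wild type shoot arrays, so it was lower in root, with a difference of -0.85 ± 0.12 (adjusted p = 2.22e-07). PK2 (LOC4351493) had 664, 521, 690.2 and 611 on wild type root arrays and 374, 359.7, 344 and 345 on wild type shoot arrays, so it was higher in root by 0.77 ± 0.09 (adjusted p = 2.46e-08). Neither probe set overlapped between the tissues. PPDK, pyruvate orthophosphate dikinase, which interconverts pyruvate and phosphoenolpyruvate, was also split. PPDK1 was lower in wild type root (-1.08 ± 0.33, adjusted p = 0.00502) and PPDK2 higher (1.69 ± 0.37, adjusted p = 0.000223). Without root wild type replicate 1 the PPDK1 difference was -0.62 and was no longer called (adjusted p = 0.0537). Triosephosphate isomerase, which interconverts both triose phosphates, was lower in root on both probe sets, with a difference of -0.40 ± 0.12 on probe set 1 and -0.93 ± 0.16 on probe set 2 (adjusted p = 0.00679 and 1.26e-05). The direction of TPI probe set 1 turned to 0.21 (adjusted p = 0.00584) after quantile normalization over both tissues.

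Root was also set against shoot within each transgenic line, leaving out Adh2, whose shoot intensities of 8.8 to 25.8 over all genotypes lay around the added constant. PDC2 probe set 2 gave 1.42 in AGR1/7, 1.55 in AGR1/8, 1.70 in AGR3/8 and 1.77 in wild type. PK2 differed by 0.17 ± 0.09 in AGR1/7, where it was not called (adjusted p = 0.134), by 0.56 ± 0.09 in AGR1/8, by 0.35 ± 0.09 in AGR3/8 and by 0.77 ± 0.09 in wild type. PPDK1 was not called in any line (0.16 ± 0.33 in AGR1/7, -0.59 ± 0.33 in AGR1/8 and -0.46 ± 0.33 in AGR3/8), against -1.08 ± 0.33 in wild type. The mean effect of the 3 lines in root was then set against that in shoot, in 1 fit. PK2 was the 1 member called of 36 tested, or 2.78%, beside 1.95% of all probe sets tested. Its value is given below with PK2, and that of PPDK1 was 0.79 ± 0.38 and not called (adjusted p = 0.276).

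In root, few members were called between the lines and wild type, and a member that was not called may still differ. Of 36 tested, 2 were called for the mean of the 3 lines, both lower than wild type (PK2 and TPI probe set 2), or 5.56%, beside 5.32% of all probe sets. The median difference of the 36 members was 0.06, against 0.03 over all probe sets tested. In AGR1/7 PK2 alone was called (2.78%, beside 2.47% of all probe sets), and in AGR1/8 TPI probe set 2 alone (2.78%, beside 2.48%). AGR3/8 had PK2 lower and FBA3 probe set 3 higher (5.56%, beside 5.41%). A test for any difference among the 3 lines called TPI probe set 2 and GAPC3 probe set 3 (5.56%, beside 2.99%). The 4 comparisons with wild type share the same 4 wild type arrays.

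**Figure D2:**
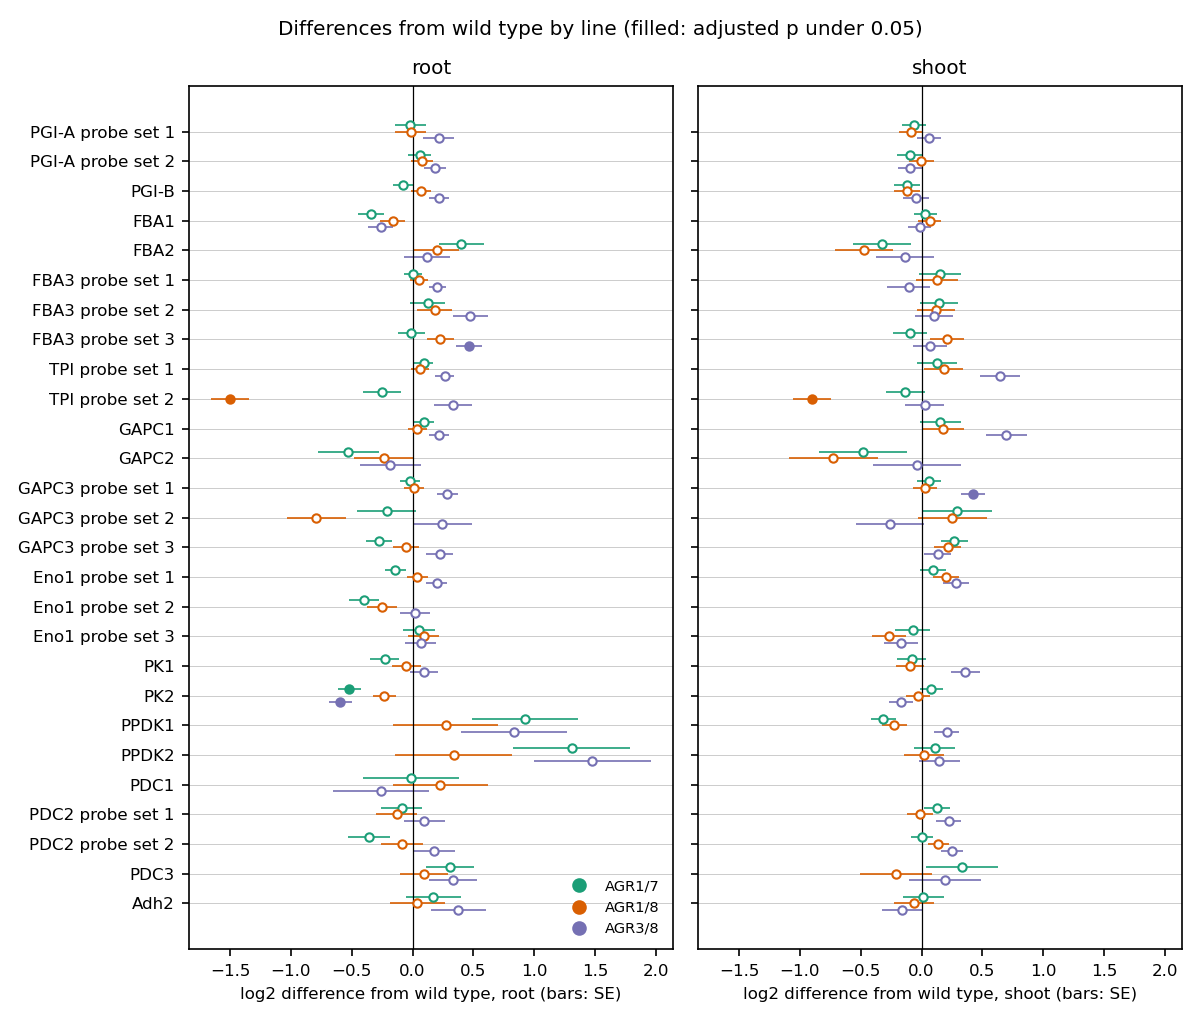
Log2 difference from wild type with its standard error (horizontal) for each enzyme probe set tested in root (left panel) and shoot (right panel), by line; filled points have an adjusted p under 0.05. TPI probe set 2 in AGR1/8 is the farthest left point in both tissues, and in root PK2 is filled for AGR1/7 and AGR3/8.

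PK2, the pyruvate kinase that was higher in root than in shoot, was lower in transgenic roots. Its intensities were 377, 456, 429.7 and 443 in AGR1/7, 553, 528, 502 and 510.2 in AGR1/8 and 444, 384, 388 and 403 in AGR3/8, against 664, 521, 690.2 and 611 in wild type. Every AGR1/7 and AGR3/8 array lay below every wild type array, and 2 AGR1/8 arrays lay above wild type replicate 2. For the mean of the 3 lines the difference was -0.45 ± 0.08 (adjusted p = 0.00494), with 12 of 12 transgenic arrays below the wild type mean. By line, PK2 fell by 0.52 ± 0.09 in AGR1/7 (adjusted p = 0.0116) and by 0.59 ± 0.09 in AGR3/8 (adjusted p = 0.0044). The difference was -0.23 ± 0.09 in AGR1/8 and was not called (adjusted p = 0.247), and the test among the lines was not past the threshold (adjusted p = 0.0873), though it was in 4 of 24 alternatives, among them without wild type replicate 1 or 2. The calls in AGR1/7 and AGR3/8 held under all 24 alternatives; that for the mean of the lines was lost when line was taken as a random unit (adjusted p = 0.0833).

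In shoot, PK2 had 435, 339, 358 and 383 in AGR1/7, 342, 365, 360.3 and 329 in AGR1/8 and 345, 256, 311 and 356 in AGR3/8, against 374, 359.7, 344 and 345 in wild type. These groups overlapped, and the mean difference was -0.04 ± 0.08 (adjusted p = 0.896). The effect in root minus that in shoot was -0.41 ± 0.11 (adjusted p = 0.0442), and this call was lost in 22 of 39 alternatives, among them without wild type root replicate 1 (adjusted p = 0.113) and without wild type root replicate 3 (adjusted p = 0.0895). PK1, the other pyruvate kinase, was not called in root. It averaged 1150.3 ± 214 in AGR1/7, 1288 ± 53.3 in AGR1/8, 1433 ± 165 in AGR3/8 and 1339.8 ± 133 in wild type (SD, n = 4 each), with a mean difference of -0.06 ± 0.10 (adjusted p = 0.749).

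**Figure D3:**
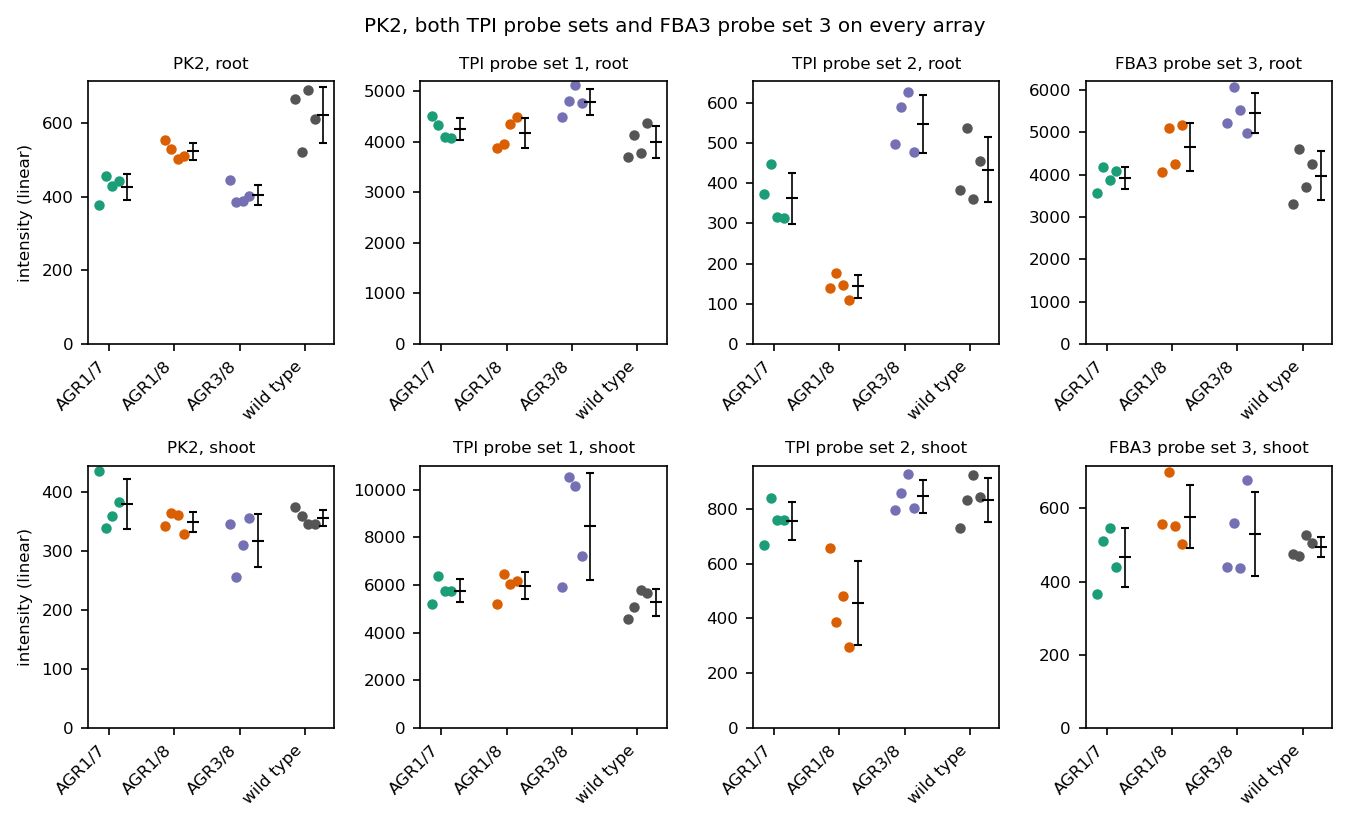
Linear intensity (vertical axes, which differ between panels and start at 0) of PK2, TPI probe sets 1 and 2 and FBA3 probe set 3 in root (top) and shoot (bottom), 1 point per array for the 3 lines and wild type, with mean ± SD as black bars. PK2 is lowest in AGR3/8 and AGR1/7 roots, and TPI probe set 2 is lowest in AGR1/8 in both tissues while TPI probe set 1 is not.

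Triosephosphate isomerase (LOC4325211) gave the sharpest difference of 1 line, and on 1 of its 2 probe sets. TPI probe set 2 had 373, 448, 317 and 312 in AGR1/7 root, 139, 178, 148 and 109.5 in AGR1/8 root and 498, 589.6, 627 and 478 in AGR3/8 root, against 384, 537, 359.7 and 455 in wild type root. All AGR1/8 arrays lay below all arrays of the other genotypes. In AGR1/8 root it fell, with a difference from wild type of -1.50 ± 0.16 (adjusted p = 1.61e-05). The difference was -0.25 ± 0.16 in AGR1/7 and 0.33 ± 0.16 in AGR3/8, neither called (adjusted p = 0.397 and 0.203). The call for the mean of the 3 lines (-0.47 ± 0.13, adjusted p = 0.0437) was lost in 15 of 25 alternatives, 5 of 12 transgenic arrays exceeded the mean of wild type, and the test among the lines gave an adjusted p of 3.5e-06.

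The same probe set was low in the shoots of AGR1/8. Its intensities were 669, 839, 760.4 and 761 in AGR1/7, 656, 388, 481 and 297 in AGR1/8 and 795, 860.0, 927 and 804 in AGR3/8, against 732, 831, 924 and 843 in wild type. Every AGR1/8 array was below every wild type array, though AGR1/8 replicate 1 lay close to the lowest AGR1/7 array. It fell by 0.90 ± 0.16 in AGR1/8 shoot (adjusted p = 0.00607), and both AGR1/8 calls held under all alternatives run, 24 in root and 25 in shoot. Among the lines the adjusted p was 0.00945 in shoot. The 3′ to 5′ ratio of the array's own GAPDH control, a sign of RNA quality, moved with these values. It was 2.75, 3.21, 2.90 and 3.59 on the AGR1/8 shoot arrays, all above the 2.52 to 2.74 of wild type shoot, and TPI probe set 2 was lowest where the ratio was highest. In AGR3/8 shoot, where the ratio was 2.74 to 4.40, TPI probe set 2 differed by 0.03 ± 0.16 (adjusted p = 0.967). In root the ratio was 2.29 to 3.24 in AGR1/8 and 2.25 to 3.29 in wild type. The part of RNA quality in the TPI values was not tested. TPI probe set 1, which the annotation gives to the same gene, did not share it: the AGR1/8 difference was 0.06 ± 0.08 in root and 0.18 ± 0.16 in shoot (adjusted p = 0.75 and 0.714). The cause of this disagreement between the probe sets was not tested.

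In AGR3/8 root, 23 of 27 enzyme probe sets had a positive difference from wild type, and the median was 0.21, against 0.05 over all probe sets tested. The share of positive differences was not counted over all probe sets or without wild type replicate 1. Several of these probe sets belong to the same gene, and all are set against the same wild type arrays. FBA3 probe set 3 was the 1 member called higher. Its values were 3564, 4173, 3869 and 4085 in AGR1/7, 4076, 5095, 4254 and 5169.6 in AGR1/8 and 5229.8, 6066, 5535 and 4977 in AGR3/8, against 3317, 4618, 3700.2 and 4258 in wild type. All AGR3/8 arrays lay above all wild type arrays, and it rose by 0.46 ± 0.11 (adjusted p = 0.0261). The call was lost in 6 of 24 alternatives, among them without wild type replicate 1 (adjusted p = 0.0603), wild type replicate 3 (0.0628), AGR3/8 replicate 2 (0.0851) or AGR3/8 replicate 3 (0.0778). This probe set carries the suffix by which the maker marks probes that may also bind other transcripts. The same suffix is on PPDK2, GAPC3 probe set 3, PGI-A probe set 2 and Eno1 probe set 3. FBA3 probe set 1 differed by 0.20 ± 0.07 in AGR3/8 root (adjusted p = 0.0929).

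Other AGR3/8 root values of the middle steps came close to the threshold without passing it. GAPC3 probe set 1 had 5727, 6478, 6479 and 6296 in AGR3/8, against 4825, 5705, 4732 and 5241 in wild type, with no overlap and a difference of 0.29 ± 0.08 (adjusted p = 0.0542). TPI probe set 1 differed by 0.26 ± 0.08 (adjusted p = 0.054), also with no overlap. GAPC3 probe set 1 was called in 4 of 24 alternatives and TPI probe set 1 in 3, both of them without wild type replicate 2 or AGR1/7 replicate 1. GAPC3 probe set 3 differed among the lines (adjusted p = 0.0429): it averaged 2532 ± 371 in AGR1/7, 2944 ± 269 in AGR1/8, 3559 ± 231 in AGR3/8 and 3060.3 ± 357 in wild type (SD, n = 4 each). That call stood in 10 of 24 alternatives. For FBA1 all 12 transgenic root arrays were below the wild type mean, with a difference of -0.26 ± 0.09 that was not called (adjusted p = 0.0847). Eno1 probe set 1 and PGI-A probe set 1 differed by 0.03 ± 0.07 and 0.06 ± 0.10 for the mean of the lines in root (adjusted p = 0.833 and 0.778).

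Pyruvate orthophosphate dikinase varied widely between root arrays of 1 genotype. PPDK1 (LOC4338750) had 2124, 1729, 2369.8 and 2532 in AGR1/7, 909, 1545, 2729.5 and 915 in AGR1/8 and 2166, 2423, 2643 and 1222 in AGR3/8, against 419, 1350.4, 2547 and 1126 in wild type. The wild type range spanned all but 2 of the 12 transgenic values, its lowest value being that of replicate 1, the array that stood apart. The mean difference of 0.68 ± 0.35 was not called (adjusted p = 0.265). PPDK2 (LOC4333181) had 1117, 141, 165 and 150.2 in AGR1/7, 118, 111, 147 and 114 in AGR1/8 and 248, 348, 323 and 246 in AGR3/8, against 39.2, 139.9, 117 and 108 in wild type. AGR1/7 replicate 1 was far above all other root arrays, and all AGR3/8 arrays lay above all wild type arrays. The mean difference of 1.04 ± 0.39 was not called (adjusted p = 0.125), with 12 of 12 transgenic arrays above the wild type mean. Without AGR1/7 replicate 1 it was called at 0.81 (adjusted p = 0.0289), and so was AGR3/8 at 1.48 (adjusted p = 0.00325, against 0.0784 with that array).

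**Figure D4:**
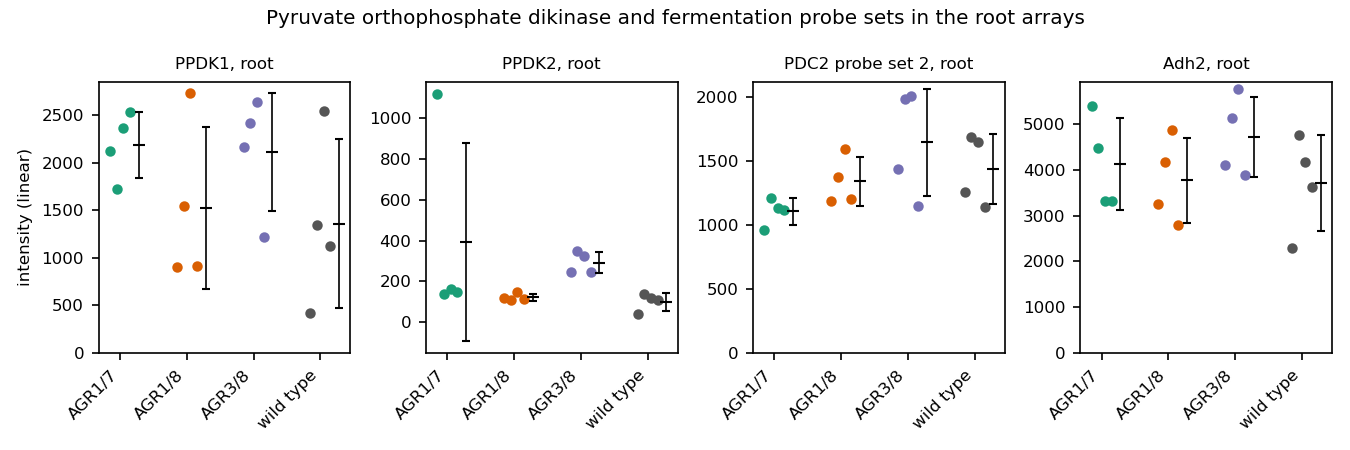
Linear intensity (vertical axes differ between panels) of PPDK1, PPDK2, PDC2 probe set 2 and Adh2 on the root arrays, 1 point per array, with mean ± SD as black bars. PPDK1 spans 419 to 2547 in wild type, and 1 AGR1/7 array at 1117 sets the wide bar of PPDK2 in that line.

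No fermentation enzyme was called between any line and wild type in root. Adh2 had 5404, 4473, 3327 and 3326 in AGR1/7, 3249, 4178, 4876 and 2808 in AGR1/8 and 4111, 5129, 5762 and 3888 in AGR3/8, against 2306, 4766, 4180.2 and 3621 in wild type, with overlap throughout. Its mean difference was 0.20 ± 0.18 (adjusted p = 0.567), and wild type replicate 1 was again the lowest array. PDC2 probe set 2 averaged 1105 ± 105 in AGR1/7, 1339.6 ± 192 in AGR1/8, 1644 ± 421 in AGR3/8 and 1434 ± 274 in wild type (SD, n = 4 each), a mean difference of -0.09 ± 0.14 (adjusted p = 0.753). PDC2 probe set 1, PDC1 and PDC3 gave -0.04 ± 0.14, -0.02 ± 0.32 and 0.24 ± 0.16, none called. The standard error of PDC1 leaves room for a difference of the size seen for PK2 in either direction. Those of Adh2 and PDC3 leave room for an increase of that size.

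In shoot, no member of 33 tested was called for the mean of the 3 lines by limma, beside 1.57% of all probe sets, and 10 had an unadjusted p under 0.05. None was called in AGR1/7 (4 with an unadjusted p under 0.05), beside 1.6% of all probe sets. Both percentages are for the adjusted p. The share with an unadjusted p under 0.05 is not given here over all probe sets, so the unadjusted counts do not set the members apart. TPI probe set 2 was the 1 member called in AGR1/8 (3.03%, beside 1.82%), and GAPC3 probe set 1 the 1 called in AGR3/8 (3.03%, beside 0.868%). The test among the lines called 3 members, TPI probe set 2, GAPC3 probe set 1 and PPDK1 (9.09%, beside 2.26%). The median difference of the members for the mean of the lines was 0.06, against -0.0004 over all probe sets tested.

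Several glycolytic probe sets, and the shoot markers with them, were high on replicates 2 and 3 of AGR3/8 shoot. GAPC1 (LOC4344564) had 7211, 8659, 7592 and 7606 in AGR1/7, 7052, 9501, 7510.3 and 7632 in AGR1/8 and 7996, 14924, 13379.5 and 10111 in AGR3/8, against 6336, 6966, 7396 and 7177 in wild type. TPI probe set 1 had 5196, 6356, 5726 and 5746 in AGR1/7, 5187, 6479.6, 6055 and 6176 in AGR1/8 and 5933, 10528, 10160.3 and 7230.4 in AGR3/8, against 4560.3, 5086, 5795 and 5664 in wild type. All AGR3/8 arrays lay above the wild type arrays for both, and replicates 2 and 3 were the highest shoot arrays. Neither was called in AGR3/8: the difference was 0.69 ± 0.17 for GAPC1 and 0.65 ± 0.16 for TPI probe set 1 (adjusted p = 0.0576 and 0.0639). Both were called in 4 of 25 alternatives: with array weights, with the replicate block, in the fit of all 32 arrays and without AGR3/8 replicate 1, where the difference was 0.86 for GAPC1 and 0.80 for TPI probe set 1 (adjusted p = 0.00128 and 0.00188). Without replicates 2 and 3 of AGR3/8 it was 0.37 for GAPC1 and 0.32 for TPI probe set 1 (adjusted p = 0.44 and 0.505).

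The shoot markers, genes of photosynthesis, were high on the same arrays. Their summed intensity was 31773, 64260, 62073 and 46706 on the AGR3/8 shoot arrays, against 29007, 30887, 33256 and 33226 in wild type shoot, so replicate 1 of AGR3/8 lay within the wild type range. The median AGR3/8 difference of the 8 shoot marker probe sets was 0.44, against -0.02 over all probe sets tested. None of the 8 was called, the largest being an OsrbcS probe set (small subunit of Rubisco, 0.76 ± 0.18, adjusted p = 0.0556) and CAB2R (a chlorophyll-binding protein, 0.70 ± 0.18, adjusted p = 0.0724). Of the 18 enzyme probe sets with a mean over 100 in shoot, AGR3/8 replicate 2 was the highest of 16 shoot arrays for 7, replicate 3 for 2, replicate 4 for 1 and replicate 1 for 0. Counted against wild type alone the replicates were more even, with 8, 9, 11 and 8 of the 18 above every wild type array on replicates 1, 2, 3 and 4. Neither share was counted over all probe sets, so these counts do not set the enzymes apart from other genes. The array's own 3′ GAPDH control probe set is of the enzyme class of GAPC1, so it may not be independent of GAPC1. It read 5350, 10350, 9120 and 6806 on the AGR3/8 shoot arrays, and its 3′ to 5′ ratio was 2.96, 4.40, 3.76 and 2.74. The part of the shoot markers and of RNA quality in these values was not tested.

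**Figure D5:**
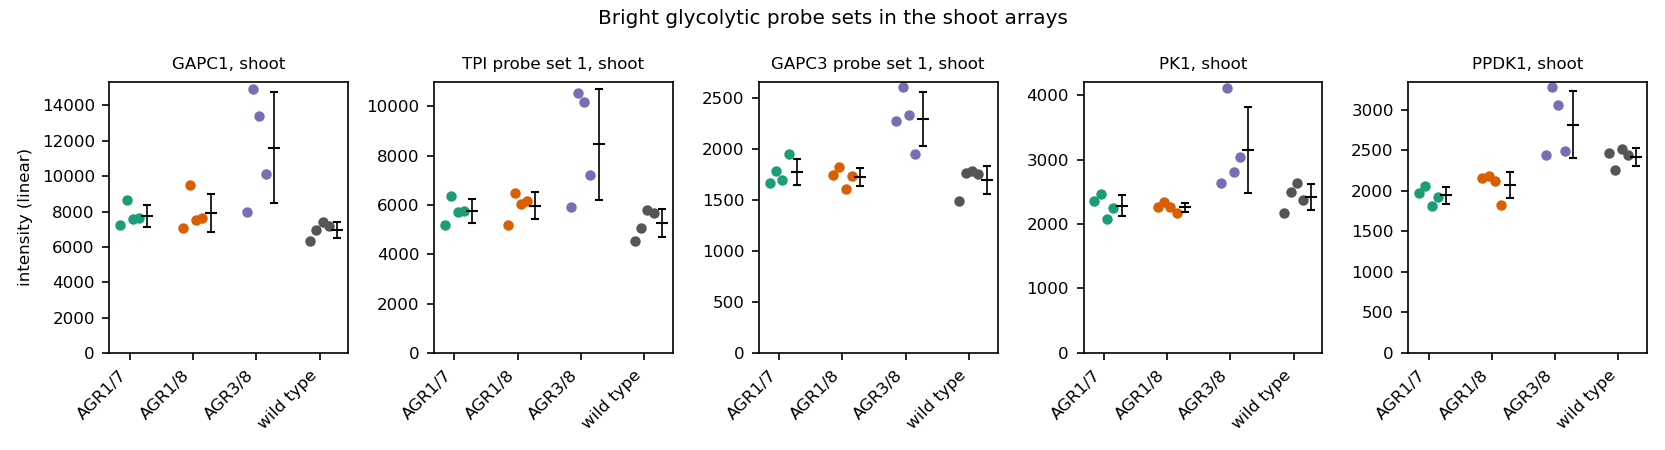
Linear intensity (vertical axes, which differ between panels and start at 0) of GAPC1, TPI probe set 1, GAPC3 probe set 1, PK1 and PPDK1 on the shoot arrays, 1 point per array, with mean ± SD as black bars. Replicates 2 and 3 of AGR3/8 are the 2 highest arrays for GAPC1 and TPI probe set 1, at 14924 and 13380 for GAPC1.

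GAPC3 probe set 1, the member called in AGR3/8 shoot, had 1672, 1784, 1697 and 1953 in AGR1/7, 1749, 1825, 1612 and 1736 in AGR1/8 and 2279, 2611, 2339 and 1958 in AGR3/8, against 1494, 1764, 1788 and 1758 in wild type. All AGR3/8 arrays were above all wild type arrays, and it rose by 0.43 ± 0.10 (adjusted p = 0.0472). The call was lost in 18 of 25 alternatives. Without replicates 2 and 3 of AGR3/8, the arrays with the highest shoot markers and 3′ to 5′ ratio, the difference was 0.31 (adjusted p = 0.384). GAPC3 probe set 3 differed by 0.13 ± 0.11 in AGR3/8 shoot (adjusted p = 0.636), and the gap between the probe sets was not tested.

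PPDK1 differed among the lines in shoot (adjusted p = 0.021). Its values were 1974, 2059.9, 1808 and 1926 in AGR1/7, 2157, 2179.7, 2125 and 1828 in AGR1/8 and 2441, 3274, 3057 and 2493 in AGR3/8, against 2465, 2258, 2519 and 2437 in wild type. All AGR1/7 and AGR1/8 arrays lay below all wild type arrays, and AGR3/8 overlapped wild type. AGR3/8 was above AGR1/7 by 0.52 ± 0.10 (adjusted p = 0.0141). The call of the test among the lines stood in 20 of 25 alternatives. It was lost without AGR3/8 replicate 2 (adjusted p = 0.0838), without replicate 3 (0.0807) and without both (0.271). These are the arrays with the highest shoot markers and 3′ to 5′ ratio. The fit of all 32 arrays also lost it (0.601). Against wild type no line was called: the difference was -0.32 ± 0.10 in AGR1/7, -0.22 ± 0.10 in AGR1/8 and 0.21 ± 0.10 in AGR3/8 (adjusted p = 0.16, 0.355 and 0.372). After quantile normalization AGR1/7 and AGR1/8 were called lower, at -0.36 (adjusted p = 0.00418) and -0.28 (adjusted p = 0.0279). PK1 in shoot averaged 2287 ± 163 in AGR1/7, 2259 ± 68.7 in AGR1/8, 3148 ± 662 in AGR3/8 and 2420.4 ± 202 in wild type (SD, n = 4 each), and its AGR3/8 difference of 0.36 ± 0.12 was not called (adjusted p = 0.147) except without AGR3/8 replicate 1 (adjusted p = 0.0402).

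The members taken by their letters alone are no enzymes of glycolysis. ETR2, ETR3 and ETR4 are ethylene receptors, and CIPK12, CIPK14 and CIPK19 are kinases that work with calcineurin B-like calcium sensors; both groups carry synonyms that begin with PK or OsPK. ALDH5F1 is succinic semialdehyde dehydrogenase, the last enzyme of the breakdown of the amino acid GABA, and the function of ALD1 is not given in the tables used here. None of the 9 tested in root and none of the 8 tested in shoot was called for the mean of the lines or in any line. Over all probe sets, 5.32% in root and 1.57% in shoot were called for the mean of the lines. All 9 tested were called between the tissues of wild type, 5 higher and 4 lower in root. This stands beside 59.2% of all probe sets called, 31.9% higher and 27.3% lower in root. The lower ones were CIPK19 at -1.69 ± 0.09, the 2 probe sets of CIPK12 at -1.12 and -1.34, and ETR3 at -0.70 ± 0.11. ALD1 was higher in root by 2.66 ± 0.40, ETR2 probe set 1 by 1.89 ± 0.17, CIPK14 by 1.00 ± 0.21 and ALDH5F1 by 0.48 ± 0.08. ALD1 varied between wild type root arrays, at 30.8, 152, 484 and 158, against 11.4, 2.6, 16.8 and 9.8 in wild type shoot, replicate 1 again being the lowest in root.

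Genes next to the pathway were counted by lists of symbols. For sugar entry (invertases, sucrose synthases, hexokinases and related enzymes), 5 of 24 probe sets tested were higher and 0 lower in root for the mean of the lines, beside 5.32% of all probe sets called in either direction, and 0 of 21 were called in shoot, beside 1.57%. The list median was -0.06 in root, against 0.03 over all probe sets. The 4 with the largest difference were HXK4 (LOC4326776, a hexokinase, 0.47 ± 0.09), HXK6 (LOC4338010, a hexokinase, 0.44 ± 0.10), CIN4 (a cell wall invertase, 0.42 ± 0.12) and OsSUS4 (a sucrose synthase, 0.36 ± 0.10), with adjusted p = 0.00939, 0.025, 0.0452 and 0.0474. The calls of HXK4 and HXK6 were lost in 2 of 25 alternatives each, that of CIN4 in 17 and that of OsSUS4 in 20. By line, HXK4 was called in AGR1/8 alone (0.89 ± 0.11, adjusted p = 0.000105), and it differed among the lines (adjusted p = 0.003). HXK6 was called in AGR1/7 alone (0.60 ± 0.13, adjusted p = 0.0243) and CIN4 in AGR3/8 alone (0.55 ± 0.14, adjusted p = 0.036). OsSUS4 was called in no single line. Without replicate 1 of wild type root, 1 of 24 was higher. OsSUS4 also differed between the tissues in the effect of the transgene, by 0.56 ± 0.12 (adjusted p = 0.0127), a call that held under all 39 alternatives.

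For the use of pyruvate in mitochondria and plastid, 0 of 18 were higher and 1 was lower in root for the mean of the lines. The list median there was -0.05. In shoot 0 of 17 were called for the mean of the lines. The shares over all probe sets were the same 5.32% in root and 1.57% in shoot. The lower one was SCS-beta, a subunit of succinyl-CoA ligase of the citric acid cycle, at -0.56 ± 0.11 (adjusted p = 0.00993). By line, SCS-beta was called lower in root in AGR1/7 (-0.65 ± 0.13, adjusted p = 0.021) and AGR3/8 (-0.65 ± 0.13, adjusted p = 0.0142). SCS-alpha was called lower in AGR1/7 root (-0.49 ± 0.11, adjusted p = 0.0323), a call lost in 6 of 24 alternatives. Thus 2 of 18 were called in AGR1/7 root, beside 2.47% of all probe sets, and 1 in AGR3/8 root, beside 5.41%. The test among the lines in root called 1 of 18, beside 2.99% of all probe sets. This was a probe set of PDHE1-B, pyruvate dehydrogenase by its name (adjusted p = 0.0312), and the call was lost in 7 of 24 alternatives. In root it averaged 1248 ± 286 in AGR1/7, 1409 ± 157 in AGR1/8, 1963 ± 185 in AGR3/8 and 1481 ± 205 in wild type (SD, n = 4 each). The list also holds ACO1, whose synonym EFE makes it an enzyme of ethylene synthesis.

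The symbols chosen for low oxygen and for malate mostly took other genes by their letters, so counts over those lists do not describe these pathways. Of 18 probe sets taken for acetaldehyde and low oxygen, 7 carry a fitting name, a choice made after the values were seen: NSHB1 and NSHB2 (hemoglobins of plants), AMY3D (an alpha-amylase) and AOX1 (an alternative oxidase of mitochondria). AOX1 was the 1 of these 7 called in root for the mean of the lines, at 0.60 ± 0.14 (adjusted p = 0.0291), beside 5.32% of all probe sets. That call was lost in 3 of 25 alternatives, among them without replicate 1 of wild type root. By line, AOX1 was called higher in root in AGR1/7 (0.74 ± 0.18, adjusted p = 0.0401) and AGR1/8 (0.82 ± 0.18, adjusted p = 0.0185). These calls were lost in 13 and 3 of 24 alternatives. In AGR3/8 root it was not called. In shoot 0 of 6 were called. Of 11 probe sets taken for C4 acids and malate, 2 are named as malic enzymes, which turn malate into pyruvate. For the mean of the lines, ME6 differed by -0.06 ± 0.14 in root and -0.30 ± 0.08 in shoot (adjusted p = 0.84 and 0.0668). NADP-ME2 differed by -0.07 ± 0.06 in root and 0.34 ± 0.10 in shoot (adjusted p = 0.553 and 0.111). By line, ME6 was called lower in AGR1/7 shoot (-0.42 ± 0.10, adjusted p = 0.0326), where 1.6% of all probe sets were called. That call was lost in 7 of 25 alternatives. Among the genes taken by letters alone, 1 was called for the mean of the lines, MEK1, a protein kinase by its name, in shoot (-0.46 ± 0.11, adjusted p = 0.0448). The symbols for alanine aminotransferase and other amino transfer matched no probe set, so the endogenous counterpart of the transgene was not analysed here.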

How the data were processed

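Total RNA of root and shoot was biotin-labelled and hybridized to a rice array, per the labels' protocols. The deposited table holds 1 intensity per probe set and array, which the authors placed on a linear scale. Every array's mean after trimming 2% at each end was 100.013 to 100.019, so the deposited intensity values are scaled per array, which hides any change in total RNA. The summarising software was not given in the sources used here. After leaving out 187 control probe sets, values were taken as log2(intensity + 16), and the dimmest 33.3% by mean log2 value was left out. limma 3.58.1 in R 4.3.3 (lmFit and eBayes with trend) fitted each tissue's 16 arrays, and all 32 arrays for root against shoot. P-values were adjusted by the Benjamini-Hochberg method over 38129 probe sets. For arrays, their number limits the precision. The scripts were tested on simulated data.

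Named members were those called in any contrast within a tissue or between the tissues' effects, the brightest of each enzyme class per tissue, the 5 largest and 5 smallest root minus shoot differences, and up to 4 called members of each neighbouring list. Others were named after their values were seen. Members and lists were chosen with earlier results of these data known. Alternatives changed the added constant, the filter, the scaling, array weights, the replicate block, the unit of replication, the fit and each replicate in turn. No genome build is named in the files, so no coordinates are given.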

Additional observations from a re-analysis of the deposited data

Results flagged for a closer look

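Over all 37 member probe sets in 8 groups of 4 arrays, 12 of 296 groups (4.05%) had 1 array far from the other 3, where chance flags about 1 in 20. In wild type root, PGI-A probe set 2 had its lowest array at 701.9, PDC3 its lowest at 3.8 and PDC1 its highest at 87.6. In AGR1/7 root, PPDK2 had its highest array at 1117.3 and CIPK14 its highest at 2899.5. In AGR3/8 shoot, the lowest array was at 584.1 for PGI-A probe set 2 and at 7.4 for PDC3. In AGR1/8 shoot, PPDK1 had its lowest array at 1828.5 and PDC1 its highest at 7.1. ETR4 had its highest AGR1/7 shoot array at 13.9. In wild type shoot, the lowest array was at 1493.5 for GAPC3 probe set 1 and at 4.3 for GAPC3 probe set 2. Values under the added constant of 16 carry little signal.

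Other results are listed here because an effect differed between groups in its own test, with adjusted p-values from limma. The effect of the transgene on PK2 in root minus that in shoot was -0.41. Among the 3 lines in root, TPI probe set 2 differed with an adjusted p of 3.5e-06 and GAPC3 probe set 3 with an adjusted p of 0.0429. Among the 3 lines in shoot, TPI probe set 2 differed with an adjusted p of 0.00945, PPDK1 with 0.021 and GAPC3 probe set 1 with 0.0484. Over the alternatives run, TPI probe set 2 was called in 24 of 24 in root and 24 of 25 in shoot, PPDK1 in 20 of 25, GAPC3 probe set 3 in 10 of 24 and GAPC3 probe set 1 in 6 of 25.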

How the results depend on the processing

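The counts of members called were small, so 1 probe set moves them. For the mean of the lines in root (2 called), there was 1 without the filter, 1 with median centring, 0 with line as a random unit and 4 when both tissues were fitted together (the joint fit). In AGR1/7 root (1 called), array weights gave 2 and the joint fit 3. In AGR3/8 root (2 called), the count was 1 without the filter, 1 after quantile normalization and 5 in the joint fit. Among the lines in root (2 called), it was 1 without the filter, 1 with median centring, 1 after quantile normalization and 12 with array weights. Quantile normalization gave 2 for the mean of the lines in shoot (0 called), 1 in AGR1/7 shoot (0 called) and 3 in AGR1/8 shoot (1 called). In AGR3/8 shoot (1 called), it was 0 without the filter, 0 with median centring, 0 after quantile normalization, 3 with array weights and 3 in the joint fit. Among the lines in shoot (3 called), the joint fit gave 5. Leaving out replicates 2 and 3 of AGR3/8 shoot, an alternative chosen after seeing the data, gave 0 in AGR3/8 shoot and 0 among the lines. For the effect in root minus that in shoot (1 called), it was 0 with an added constant of 1, 0 without the filter and 0 with median centring.

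Same-numbered arrays of 2 groups deviated together with a correlation of -0.17 to 0.42 in root (9 of 24 over 0.1) and -0.05 to 0.19 in shoot (1 of 24). Some root arrays of the same number thus shared part of their deviation, and the main fits held no term for the replicate number. With the replicate block, the count was 4 among the lines in root, 3 in AGR3/8 shoot and 6 among the lines in shoot.

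Leaving out 1 array at a time gave 1 to 3 for the mean of the lines in root, 1 to 2 in AGR1/7 root, 1 to 2 in AGR1/8 root, 1 to 6 in AGR3/8 root and 1 to 5 among the lines in root. It gave 0 to 1 for the mean of the lines in shoot, 0 to 0 in AGR1/7 shoot, 1 to 1 in AGR1/8 shoot, 0 to 4 in AGR3/8 shoot and 1 to 6 among the lines in shoot. For root minus shoot in wild type it gave 28 to 31, and for the effect in root minus that in shoot 0 to 2. TPI probe set 1, lower in wild type root by -0.40, turned to 0.21 after quantile normalization. The cause of these changes was not tested. Probe sets near the added constant carry differences that it compresses.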
